A study of Mus musculus with 9 samples.

Results

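Neural proteoglycans, tenascins and pleiotrophin are described here as 10 genes, Bcan, Ncan, Vcan, Cspg5, Tnc, Tnr, Hapln1, Ptprz1, Ptn and Mdk, taken by symbol from the 23420 gene rows of an RNA sequencing table of mouse neural stem cells. All 10 were found, and all 10 passed the filter on low values. The cells came from the hippocampus of wild type C57BL/6J mice aged 2 days. They were grown in culture and then moved to a medium lacking the growth factors bFGF and EGF, in which neural stem cells can differentiate. In that medium they received the vehicle DMSO, 3 µM NAT, which the labels call only a new small molecule, or 3 µM P7C3-A20, an aminopropyl carbazole known for favouring the survival of newborn neurons. Each group had 3 libraries. The labels call them biological replicates but do not say that each had its own culture or animal, and the p-values below cover only how far these libraries scattered. All groups shared the genotype and the growth factor withdrawal, so no library shows the cells before withdrawal. The comparisons asked how RNA levels with each compound stood against those with the vehicle, and how the compounds compared at an equal dose.

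The extracellular matrix of the brain is built on hyaluronan, a long sugar chain to which chondroitin sulfate proteoglycans of the lectican family bind. Brevican (Bcan), neurocan (Ncan) and versican (Vcan) belong to this family, link proteins such as Hapln1 lock them onto hyaluronan, and the multimeric tenascins Tnc and Tnr hold their other ends together. Ptprz1, a receptor tyrosine phosphatase that itself carries chondroitin sulfate, binds tenascins and the heparin-binding growth factors pleiotrophin (Ptn) and midkine (Mdk), and it is a familiar gene of radial glia and oligodendrocyte precursors. Cspg5, also called neuroglycan C, is a transmembrane chondroitin sulfate proteoglycan of the nervous system.

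The libraries held 12028821 to 17217584 reads, recovered as whole numbers from the steps in the deposited TPM values (transcript levels per length, scaled to the same total in every library), and the P7C3-A20 libraries were the deepest at 15885313 to 17217584. All 8 neural progenitor markers were found, at widely different levels. Fabp7, Vim and Slc1a3 had mean DMSO levels of 12202, 3791 and 2128 TPM. Sox2, Nes and Hes5 stood at 607, 209 and 155 TPM, and Pax6 and Prom1 at 54.3 and 9.10 TPM. Whether these levels set the labelled cell type apart from glia was not tested. Glial markers were present too. In the DMSO libraries 7 astrocyte genes summed to 5217 to 5535 TPM and 9 genes of the oligodendrocyte lineage to 3590 to 3744 TPM. The 7 neuron markers summed to 734 to 764 TPM in DMSO. Most of this was Map2, at a mean of 640 TPM, with Tubb3 at 46.9, Dcx at 26.8 and Rbfox3 at 1.63 TPM. By contrast 7 microglial markers summed to at most 1.04 TPM in any library, with Cx3cr1, C1qc and Trem2 at 0, and 7 pericyte and fibroblast markers to at most 2.15 TPM, with Lum at 0. The sum over 6 endothelial markers stayed at or below 7.27 TPM, with Cldn5 and Cdh5 at 0. Of 5 blood markers 3 were in the table, and they summed to at most 3.42 TPM in any library. Hba-a1 and Hbb-b1 were at 0, and Alas2 had means of 1.98 TPM in DMSO, 2.37 with NAT and 1.32 with P7C3-A20. A trend of level with GC content separated the libraries. Over 11289 genes its slope was 0.0165, 0.0384 and 0.122 log2 units per 10 percentage points of GC in P7C3-A20 replicates 1, 2 and 3, and -0.0660 to 0.00383 in the other 6 libraries. P7C3-A20 replicate 3 had the steepest slope. Where a printed difference of the 10 genes moved by more than 1.5 times or changed sign without that library, by limma-trend, its value without it is given too.

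The promoters of Bcan, Ncan and Ptprz1 are shown because these genes had the lowest p of the 10 in a comparison. Each sequence is the 250 bases upstream of the RefSeq transcript start (GRCm38.p6), read 5′ to 3′ on the gene's strand, with matches to the motifs searched in capitals.
Bcan, chr3:88000357-88000606, minus strand: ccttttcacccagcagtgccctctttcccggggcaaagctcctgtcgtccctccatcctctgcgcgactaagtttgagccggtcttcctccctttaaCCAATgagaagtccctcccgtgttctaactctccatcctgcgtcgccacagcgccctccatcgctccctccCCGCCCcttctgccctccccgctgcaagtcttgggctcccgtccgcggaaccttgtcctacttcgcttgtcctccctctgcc
Ncan, chr8:70120845-70121094, minus strand: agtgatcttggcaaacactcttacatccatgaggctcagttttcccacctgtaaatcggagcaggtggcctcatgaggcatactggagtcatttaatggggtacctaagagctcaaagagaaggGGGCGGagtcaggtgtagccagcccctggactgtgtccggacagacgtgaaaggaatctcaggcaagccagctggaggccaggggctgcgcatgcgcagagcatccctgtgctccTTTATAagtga
Ptprz1, chr6:22875252-22875501, plus strand: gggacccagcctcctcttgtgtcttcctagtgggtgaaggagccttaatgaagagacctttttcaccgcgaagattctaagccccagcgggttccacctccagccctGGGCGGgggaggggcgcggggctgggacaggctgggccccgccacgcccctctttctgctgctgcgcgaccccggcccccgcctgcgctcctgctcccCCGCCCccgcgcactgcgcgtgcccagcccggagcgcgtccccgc

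These promoters differed in base composition. GC content was 62.0% for Bcan, 54.4% for Ncan and 71.6% for Ptprz1, against a median of 52.4% over 32851 promoters, and the number of CpG dinucleotides was 16, 6 and 22, against a median of 6. The motifs were searched as exact letters on both strands. They were the TATA box (TATAAA), the box known by its letters CCAAT, the GC box (GGGCGG) and the core site of SOX factors (ACAAT), and none of the matches shown overlaps another. Bcan had a CCAAT box starting 153 bases and a GC box starting 82 bases before the start. Ncan had TATAAA on the opposite strand 11 bases and GGGCGG 126 bases before the start. Ptprz1 had only GC boxes, at 143 and 45 bases. These motifs are common, since TATAAA was found in 12.4%, CCAAT in 33.8%, GGGCGG in 32.7% and ACAAT in 27.7% of all promoters of the same length, and a match is a description of the letters only. RefSeq promoters were matched for 8 of the 10 genes, without Cspg5 and Mdk.

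The 10 genes covered a wide range of levels per length. In DMSO Ptn was the 13th most abundant of all 23420 rows at 2730 ± 21.4 TPM (SD, n = 3), Ncan was number 38 at 1594 ± 31.7 TPM, Ptprz1 number 44 at 1527 ± 9.43 TPM and Bcan number 150 at 770 ± 57.5 TPM. Cspg5 followed at 314 ± 10.7 TPM, Tnr at 131 ± 2.14, Vcan at 78.9 ± 1.18 and Tnc at 67.4 ± 1.97 TPM, while Mdk stood at 14.96 ± 0.401 TPM and Hapln1 at 0.990 ± 0.144 TPM. The order was the same in each of the 9 libraries. Neighbours in it were closest for Ncan and Ptprz1, whose ratio ran from 1.02 to 1.12, and for Vcan and Tnc, with 1.11 to 1.24. Within the DMSO group no pair of neighbours overlapped. Together the 10 genes made up 0.723% ± 0.0119 of all TPM in DMSO, 0.752% ± 0.00492 with NAT and 0.729% ± 0.0111 with P7C3-A20.

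**Figure D1:**
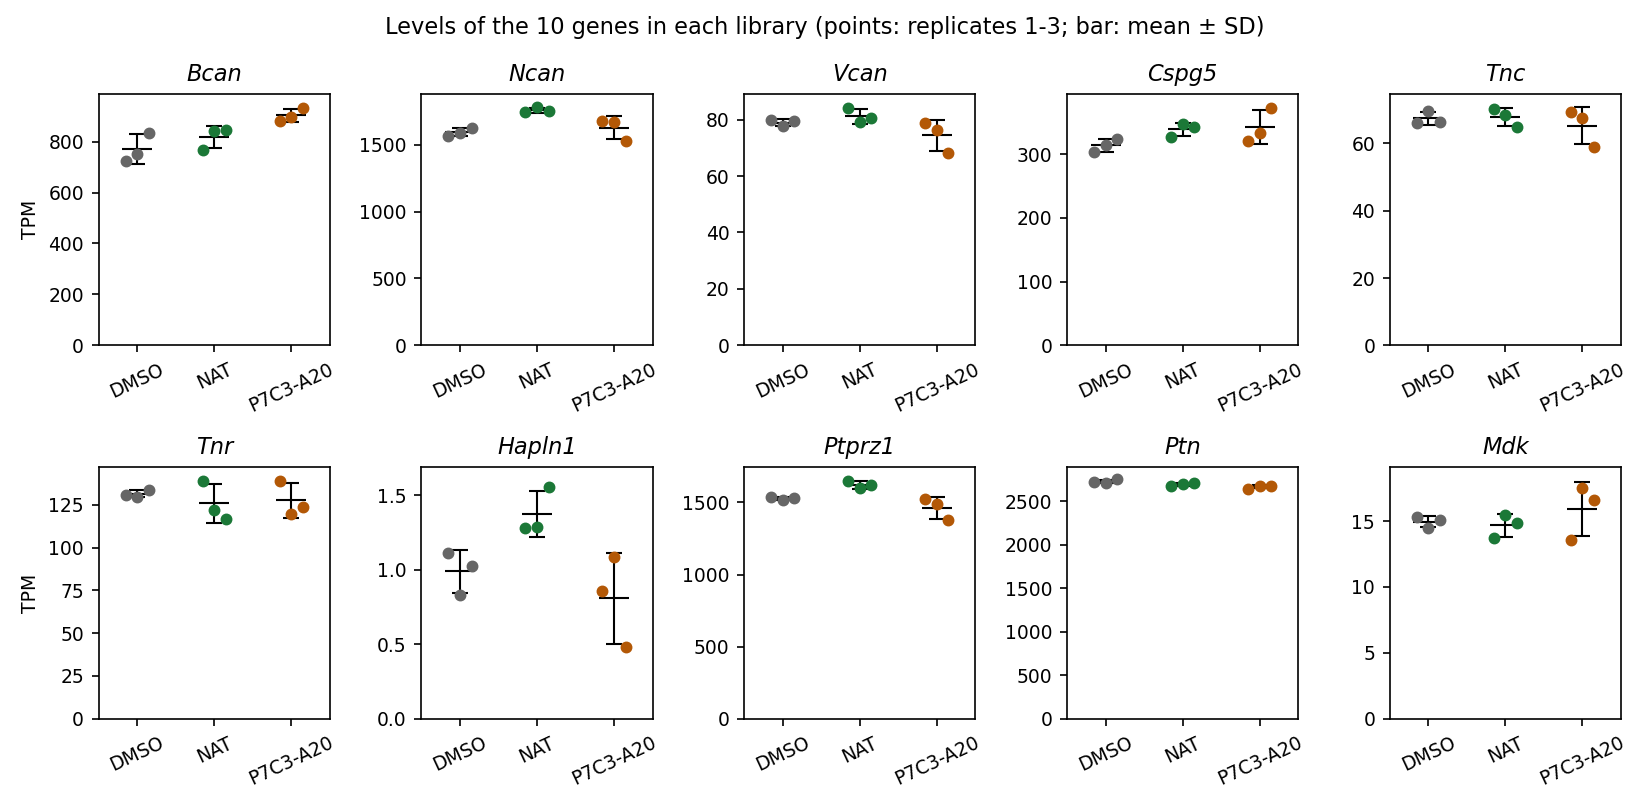
Level of each of the 10 genes in TPM (vertical axis, from 0, scaled for each gene) in the 9 libraries by group, with points for replicates 1 to 3 from left to right and bars for the mean ± SD. The 3 NAT libraries of Ncan sit between 1743 and 1781 TPM, above all others, and the 3 P7C3-A20 libraries of Bcan sit between 882 and 931 TPM, also above all others.

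None of the 10 genes passed the threshold in any comparison by limma-trend on log2(TPM + 1), which called genes at an adjusted p below 0.05 over 13839 genes. For NAT against DMSO it called 0.0289% of all tested genes. The share was 0.0217% when P7C3-A20 was set against DMSO and 0% between the compounds, so few genes of any kind passed. At an unadjusted p below 0.05 there were 2 of the 10 for NAT against DMSO (Ncan and Ptprz1), where 11.7% of all genes reached it, and 2 for P7C3-A20 against DMSO (Bcan and Cspg5), against 15.9%. For NAT against P7C3-A20 there were 5 (Bcan, Ncan, Vcan, Hapln1 and Ptprz1), against 15.8%. A fit of the recovered reads with limma's voom, which weights each value by its depth, called more genes: 0 of the 10 for NAT against DMSO (0.26% of all genes), Bcan for P7C3-A20 against DMSO (3.38%), and Bcan and Ptprz1 for NAT against P7C3-A20 (1.84%). When each library's trend with GC content was also removed, voom called none of the 10 with NAT against DMSO (0.379% of all genes), none with P7C3-A20 against DMSO (0.248%) and Ncan between the compounds (0.445%). The comparisons with DMSO share its 3 libraries, and the compounds share their libraries with the comparison between them, so the 3 sets of values are given side by side and are not independent.

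**Figure D2:**
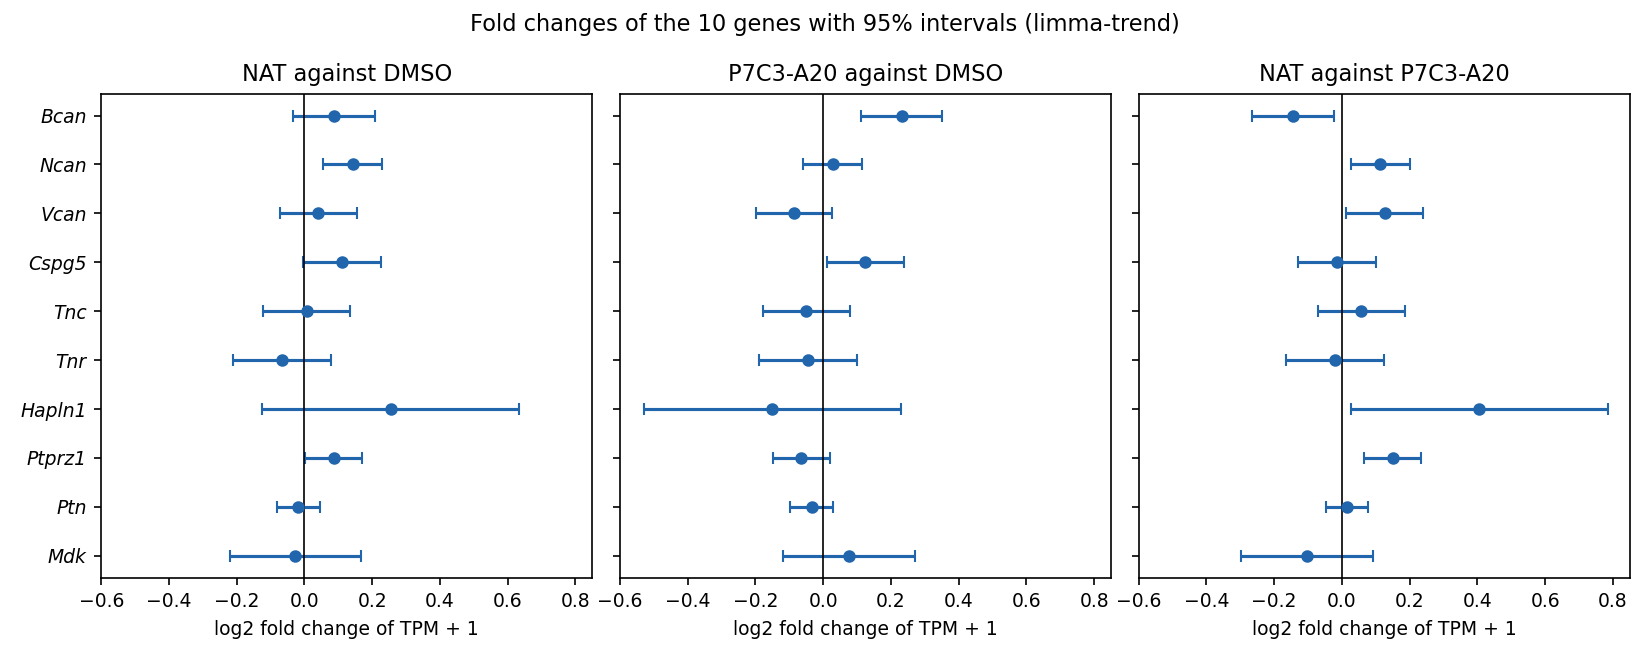
Log2 fold change of TPM + 1 (horizontal axis) of the 10 genes in the 3 comparisons, with points for the limma-trend estimate and bars for its 95% interval. The interval of Bcan lies above 0 for P7C3-A20 against DMSO (0.11 to 0.35) and that of Ncan above 0 for NAT against DMSO (0.06 to 0.23), before any adjustment for the number of genes tested.

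Among the lecticans, Bcan was highest with P7C3-A20 and Ncan was highest with NAT, and neither difference passed the threshold. Bcan, the smallest lectican of the adult brain, was at 724, 752 and 835 TPM in DMSO replicates 1, 2 and 3, at 766, 843 and 845 TPM in the NAT replicates and at 882, 898 and 931 TPM in the P7C3-A20 replicates. All P7C3-A20 libraries lay above all DMSO and all NAT libraries, while NAT and DMSO overlapped. The log2 difference was 0.23 ± 0.05 (standard error) for P7C3-A20 against DMSO (limma adjusted p = 0.153), 0.09 ± 0.05 for NAT against DMSO (adjusted p = 0.551) and -0.14 ± 0.05 for NAT against P7C3-A20 (adjusted p = 0.257). With voom the P7C3-A20 difference from DMSO was 0.25 (limma adjusted p = 0.00603), and with each library's GC trend removed from the TPM it was 0.12 ± 0.04 (adjusted p = 0.299), so the value moved by more than 1.5 times with that setting. The difference of NAT from P7C3-A20 was -0.17 by voom (limma adjusted p = 0.0417) and -0.06 with the GC trend removed (adjusted p = 0.526). Over all alternatives the adjusted p ran from 0.00186 to 0.399 for P7C3-A20 against DMSO and from 0.0417 to 0.729 between the compounds, and the sign of neither turned.

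Ncan, a lectican best known from the developing brain, was at 1568, 1585 and 1629 TPM in the DMSO replicates, at 1743, 1781 and 1751 TPM with NAT and at 1679, 1672 and 1528 TPM with P7C3-A20. The NAT libraries were above both other groups without overlap, and P7C3-A20 replicate 3 was the lowest of all 9. The log2 difference of NAT from DMSO was 0.14 ± 0.04 (limma adjusted p = 0.260) and that of NAT from P7C3-A20 0.11 ± 0.04 (adjusted p = 0.230), whereas P7C3-A20 differed from DMSO by 0.03 ± 0.04 (adjusted p = 0.759). Without P7C3-A20 replicate 3 the last 2 values were both 0.07 (limma adjusted p = 0.464 and 0.331). Voom without P7C3-A20 replicate 3 was added after seeing the data. It called Ncan higher with NAT than with DMSO, at 0.13 (limma adjusted p = 4.47e-05, where 2.09% of all genes were called). It also called Ncan higher with P7C3-A20 than with DMSO, at 0.08 (adjusted p = 0.0192, where 2.62% were called). With all libraries voom gave 0.13 (limma adjusted p = 0.0625) and 0.04 (adjusted p = 0.473), so the NAT difference itself did not change. Over the alternatives the adjusted p ran from 4.47e-05 to 0.549 for NAT against DMSO and from 0.0192 to 0.970 for P7C3-A20 against DMSO. In the latter comparison the sign turned, to -0.04, when the GC trend was removed. For NAT against P7C3-A20 the range was 0.0277 to 0.474, and the lowest value came from voom with the GC trend removed (log2 difference 0.16).

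Vcan, the large lectican of many tissues, was at 79.7, 77.6 and 79.5 TPM with DMSO, 84.2, 79.1 and 80.4 TPM with NAT and 78.8, 76.3 and 68.3 TPM with P7C3-A20. Every NAT library was above every P7C3-A20 library, by a narrow gap, and both groups overlapped DMSO. The log2 difference of NAT from P7C3-A20 was 0.13 ± 0.05 (limma adjusted p = 0.278) and came to 0.07 without P7C3-A20 replicate 3 and to 0.05 with the GC trend removed. Against DMSO the differences were 0.04 with NAT (adjusted p = 0.785) and -0.09 with P7C3-A20 (adjusted p = 0.437), the latter -0.03 without P7C3-A20 replicate 3 and -0.05 with the GC trend removed. With the GC trend removed the NAT value was 0.01. Of the TPM of the 4 lecticans, which include the nearly silent aggrecan gene Acan (mean 0.304 TPM), Ncan took 65.3% in DMSO, 66.2% with NAT and 62.4% with P7C3-A20. Bcan took 31.5%, 30.8% and 34.7%, and Vcan 3.23%, 3.06% and 2.86%.

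Taken as a ratio within each library, Bcan over Ncan was 0.483 ± 0.0263 in DMSO, 0.465 ± 0.0227 with NAT and 0.557 ± 0.0454 with P7C3-A20 (SD, n = 3 each). The P7C3-A20 libraries (0.525 to 0.609) did not overlap the DMSO (0.462 to 0.513) or NAT (0.439 to 0.482) libraries. Bcan by itself was also apart between these groups, so the ratio is not a separate result. No share over other pairs of genes was computed. The exact two-sided permutation test gave p = 0.1 for P7C3-A20 against either other group, the smallest p that 3 against 3 libraries allow, and p = 0.5 for NAT against DMSO. Adjusted over the 12 ratio comparisons made, these exact permutation values became 0.3, 0.3 and 0.667. On the log2 scale the difference of P7C3-A20 from DMSO was 0.20, and it was 0.17 with the GC trend removed and 0.14 without P7C3-A20 replicate 3. NAT differed from P7C3-A20 by -0.26, by -0.22 with the GC trend removed and by -0.19 without that library.

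**Figure D3:**
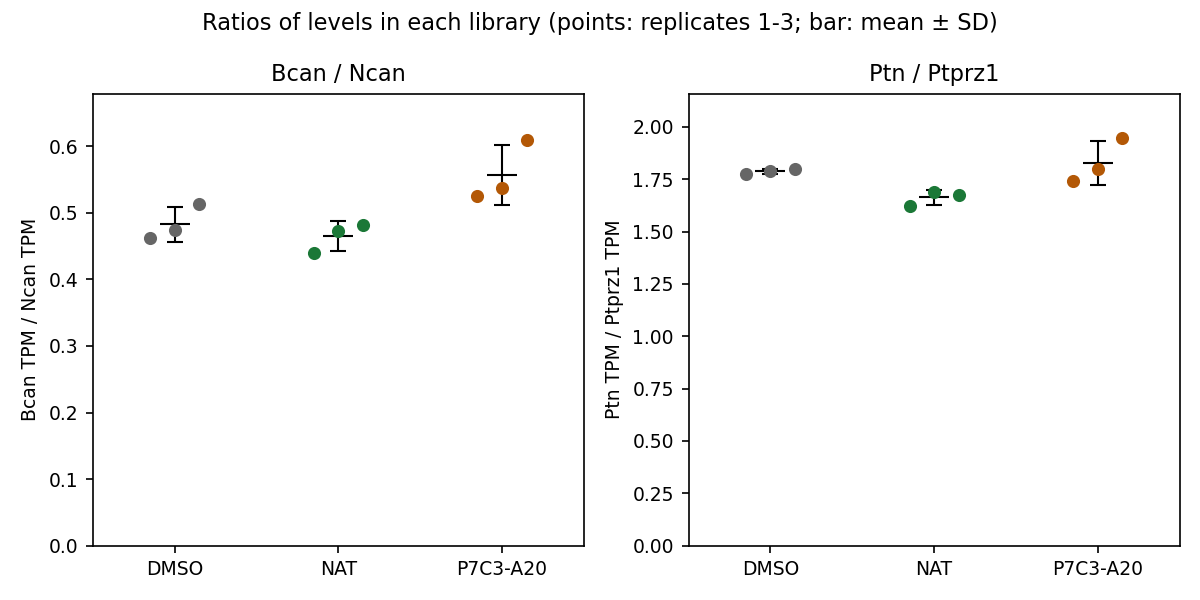
Ratio of Bcan to Ncan and of Ptn to Ptprz1 (vertical axes, TPM over TPM, from 0) in each library, with points for replicates 1 to 3 from left to right and bars for the mean ± SD. The P7C3-A20 libraries of the first ratio lie above all others at 0.525 to 0.609, and the NAT libraries of the second lie below all others at 1.62 to 1.69.

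Cspg5 had levels of 303, 314 and 324 TPM with DMSO, 327, 347 and 343 TPM with NAT and 321, 334 and 373 TPM with P7C3-A20. NAT lay above DMSO without overlap, and P7C3-A20 overlapped both. The log2 differences from DMSO were 0.11 ± 0.05 for NAT (limma adjusted p = 0.436) and 0.13 ± 0.05 for P7C3-A20 (adjusted p = 0.278), and the compounds differed from each other by -0.01, with a 95% interval of -0.13 to 0.10. Without P7C3-A20 replicate 3, the highest of the 9 libraries, P7C3-A20 differed from DMSO by 0.06 (limma adjusted p = 0.531) and NAT from P7C3-A20 by 0.05 (adjusted p = 0.720).

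The tenascins showed no difference beyond the spread of the libraries. Tnc, a tenascin of progenitor zones and reactive glia, was at 66.2, 69.7 and 66.4 TPM with DMSO, 70.1, 68.3 and 64.9 TPM with NAT and 69.2, 67.4 and 59.0 TPM with P7C3-A20. Its log2 difference from DMSO was 0.01 with NAT (limma adjusted p = 0.975, interval -0.12 to 0.14) and -0.05 with P7C3-A20 (adjusted p = 0.707, interval -0.18 to 0.08), and the signs turned, to -0.02 for NAT with the GC trend removed and to 0.02 for P7C3-A20 without its replicate 3. With the GC trend removed the P7C3-A20 value was -0.09. Tnr, which is made mainly by the oligodendrocyte lineage and some neurons, was at 131, 129 and 134 TPM with DMSO, 139, 122 and 117 TPM with NAT and 139, 120 and 124 TPM with P7C3-A20. All 3 groups of both genes overlapped, and the Tnr differences from DMSO were -0.07 with NAT (limma adjusted p = 0.724) and -0.05 with P7C3-A20 (adjusted p = 0.766), which was -0.03 without P7C3-A20 replicate 3. Tnr exceeded Tnc in every library, with a mean ratio of 1.95 in DMSO, 1.85 with NAT and 1.96 with P7C3-A20.

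Hapln1, the cartilage-type link protein, was near the lower limit of what these libraries measured. It had 14 to 36 reads per library, against 52377 to 74530 for Ptprz1. Levels were 1.11, 0.832 and 1.02 TPM with DMSO, 1.28, 1.29 and 1.55 TPM with NAT and 0.859, 1.08 and 0.480 TPM with P7C3-A20. The NAT libraries were above all others, and P7C3-A20 replicate 3 was the lowest. Its 14 reads gave an exact 95% Poisson interval of 0.263 to 0.806 TPM, which covers counting error only, and the 36 reads of NAT replicate 3 gave 1.09 to 2.15 TPM. The log2 difference of NAT from P7C3-A20 was 0.41 ± 0.17 (limma adjusted p = 0.291) and came to 0.27 without P7C3-A20 replicate 3, while NAT differed from DMSO by 0.26 ± 0.17 (adjusted p = 0.583) and P7C3-A20 from DMSO by -0.15 ± 0.17 (adjusted p = 0.701), the last being -0.01 without that library (adjusted p = 0.987) and -0.09 with the GC trend removed. On this scale the added 1 TPM is as large as the level itself, so these values understate the ratio of the levels.

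Ptprz1, the receptor of the set, was at 1536, 1517 and 1529 TPM with DMSO, 1649, 1598 and 1619 TPM with NAT and 1522, 1488 and 1377 TPM with P7C3-A20. All NAT libraries were above all DMSO libraries and all P7C3-A20 libraries, and DMSO and P7C3-A20 overlapped. NAT differed from P7C3-A20 by 0.15 ± 0.04 on the log2 scale (limma adjusted p = 0.186), the lowest p of the 10 genes in that comparison, from DMSO by 0.09 ± 0.04 (adjusted p = 0.418), and P7C3-A20 differed from DMSO by -0.06 ± 0.04 (adjusted p = 0.435). That last value was -0.02 without P7C3-A20 replicate 3 and -0.03 with the GC trend removed, and with the trend removed NAT differed from DMSO by 0.06. The difference between the compounds was 0.13 by voom (limma adjusted p = 0.0318), 0.11 without P7C3-A20 replicate 3 by limma-trend (adjusted p = 0.349) and 0.09 with the GC trend removed (adjusted p = 0.322). Without P7C3-A20 replicate 3, voom also called Ptprz1 higher with NAT than with DMSO, at 0.08 (limma adjusted p = 0.00848), and higher with NAT than with P7C3-A20, at 0.09 (adjusted p = 0.00998, where 0.564% of all genes were called). With all libraries the voom difference of NAT from DMSO was also 0.08 (limma adjusted p = 0.306). Over the alternatives the adjusted p ran from 0.00848 to 0.661 for NAT against DMSO and from 0.00998 to 0.571 for NAT against P7C3-A20.

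Of the growth factors that bind Ptprz1, Ptn was abundant, with group means of 2667 to 2730 TPM, and Mdk was low. Ptn was at 2726, 2711 and 2753 TPM with DMSO, 2674, 2702 and 2712 TPM with NAT and 2648, 2673 and 2681 TPM with P7C3-A20. Its P7C3-A20 libraries were all below its DMSO libraries, by a difference of -0.03 on the log2 scale (limma adjusted p = 0.593, interval -0.10 to 0.03), and NAT overlapped both (-0.02 against DMSO, adjusted p = 0.836). With the GC trend removed these differences were 0.000836 and -0.05. Mdk was at 15.3, 14.5 and 15.1 TPM with DMSO, 13.7, 15.4 and 14.9 TPM with NAT and 13.6, 17.5 and 16.6 TPM with P7C3-A20, on 81 to 142 reads per library. Its groups overlapped, and it differed from DMSO by -0.03 with NAT (limma adjusted p = 0.928) and by 0.08 with P7C3-A20 (adjusted p = 0.705). The P7C3-A20 value was 0.04 without P7C3-A20 replicate 3 and -0.01 with the GC trend removed, where the NAT value was -0.05. The level of Ptn was 183 ± 4.20 times that of Mdk in DMSO, 184 ± 10.3 times with NAT and 170 ± 22.4 times with P7C3-A20.

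Set against its receptor, Ptn stood at 1.79 ± 0.0130 times Ptprz1 in DMSO, 1.66 ± 0.0364 times with NAT and 1.83 ± 0.107 times with P7C3-A20. The NAT libraries (1.62 to 1.69) were below the DMSO (1.77 to 1.80) and P7C3-A20 (1.74 to 1.95) libraries without overlap, with exact permutation p = 0.1 for each, the smallest possible, and 0.3 after adjustment over the 12 ratio comparisons. Ptprz1 by itself was also apart between these groups, so this ratio is not a separate result either. The log2 difference of NAT from DMSO in the ratio was -0.10 as deposited and with the GC trend removed. That of NAT from P7C3-A20 was -0.14 in both settings and -0.09 without P7C3-A20 replicate 3. Transcript GC content was 44.4% for Ptn and 44.5% for Ptprz1, and the cause of the differences in this ratio was not tested.

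Read by comparison, the NAT libraries lay wholly above the DMSO libraries for 4 of the 10 genes (Ncan, Cspg5, Hapln1 and Ptprz1) and wholly below for 0. Over all tested genes 14.1% lay wholly above and 4.89% wholly below. With P7C3-A20 against DMSO, Bcan was the only one of the 10 higher without overlap and Ptn the only one lower, where 13.1% of all genes were higher and 7.49% lower. Between the compounds 4 were higher with NAT (Ncan, Vcan, Hapln1 and Ptprz1) against 13.3% of all genes, and Bcan was lower against 8.35%. The median log2 difference of the 10 genes was 0.06, -0.04 and 0.04 in the 3 comparisons, beside 0.03, 0.01 and 0.01 over all tested genes, and 7, 4 and 6 of the 10 were positive, where 63.5%, 55.2% and 54.0% of all tested genes were. Some marker sums lay apart between the groups as well. No test was run on these sums. Among all tested genes, 19% did not overlap in either direction for NAT against DMSO and 20.6% for P7C3-A20 against DMSO. The astrocyte sum was 5554 to 5783 TPM with NAT, above the DMSO range, and 5118 to 5633 TPM with P7C3-A20. The oligodendrocyte lineage sum was 3422 to 3576 TPM with NAT, below the DMSO range, and 3580 to 4140 TPM with P7C3-A20. The neuron sum was 722 to 764 TPM with NAT and 700 to 754 TPM with P7C3-A20, and both overlapped the DMSO range of 734 to 764 TPM. The progenitor sum was 18901 to 19320 TPM in DMSO, 18288 to 18749 TPM with NAT and 17313 to 18222 TPM with P7C3-A20, so it was lower with either compound without overlap. Fabp7 carried this, at 11868 to 12411 TPM in DMSO, 11168 to 11746 with NAT and 10636 to 11236 with P7C3-A20. The other 7 progenitor markers summed to 6909 to 7032 TPM in DMSO, 7003 to 7120 with NAT and 6677 to 7110 with P7C3-A20, which overlap. The part of these sums in the differences above was not tested, and in bulk RNA fewer cells of a type and less RNA per cell cannot be told apart.

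Transcript GC content varied widely among the 10 genes and went along with their P7C3-A20 values. It was 60.7% for Bcan, 57.2% for Mdk, 55.1% for Ncan, 52.5% for Tnc, 51.3% for Cspg5, 47.7% for Tnr, 43.7% for Vcan and 39.8% for Hapln1, computed on the longest GENCODE transcript of each gene. Across the 10 genes the log2 difference of P7C3-A20 from DMSO had a Pearson r of 0.86 and a Spearman rho of 0.82 with GC content, and over all tested genes rho was 0.479. Genes share the same libraries and are not replicates, so these are descriptions. After removal of each library's GC trend, r over the 10 genes was 0.54 and rho 0.42. For NAT against DMSO r was -0.22. For NAT against P7C3-A20 r was -0.76 and rho -0.73 over the 10 genes, and rho was -0.470 over all tested genes. With the GC trend removed, r between the compounds was -0.49 and rho -0.37 over the 10 genes. The part of the GC trend in the single differences was not tested. The GC slope of every P7C3-A20 library lay above that of every other library, so the trend and the compound cannot be told apart. Values with the trend removed can also lose a difference of the compound that follows GC content.

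**Figure D4:**
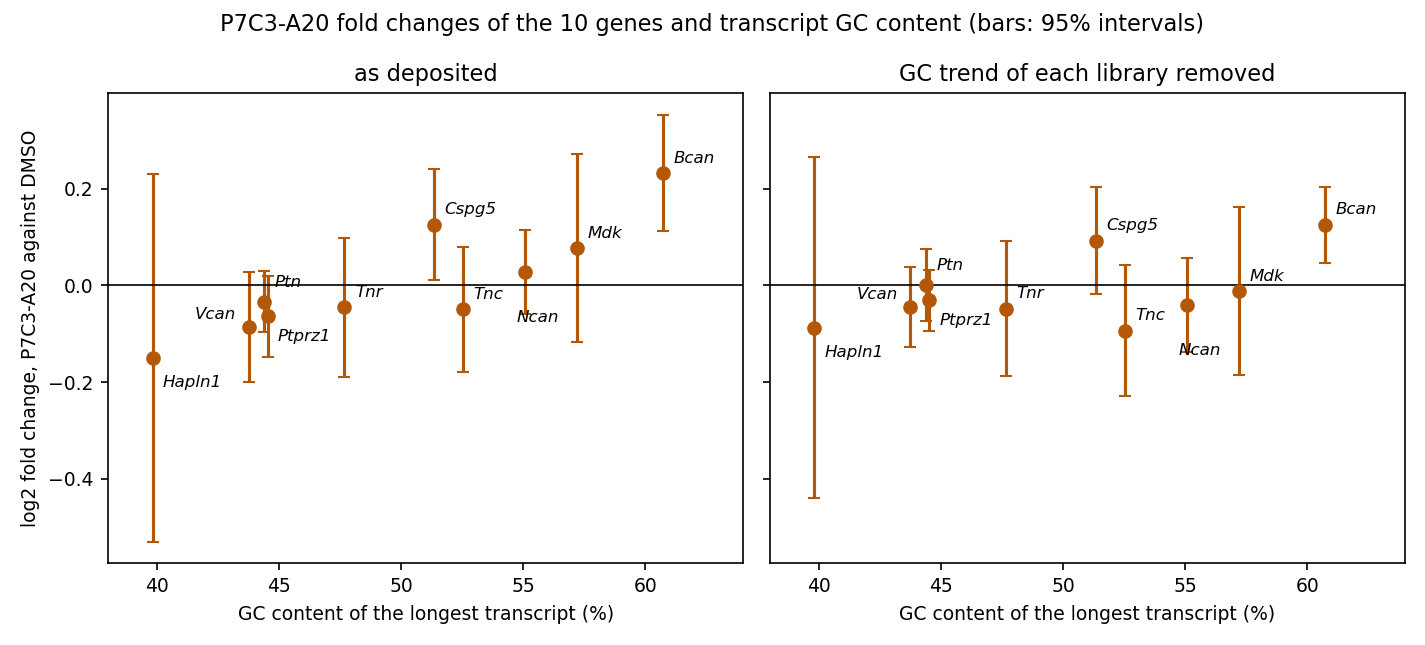
Log2 difference of P7C3-A20 from DMSO (vertical axis) against transcript GC content in percent (horizontal axis) for the 10 genes, as deposited and with each library's GC trend removed, with bars for 95% intervals. Bcan, at 60.7% GC, has the highest value in both panels, 0.23 and 0.12, and Hapln1, at 39.8%, has the lowest as deposited.

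The wider matrix pathway was described with 5 lists holding 81 tested genes, of which limma-trend called 0 in each comparison. At an unadjusted p below 0.05 there were 15 with NAT against DMSO, 18 with P7C3-A20 against DMSO and 16 between the compounds, where 11.7%, 15.9% and 15.8% of all tested genes reached it. Voom called 1, 7 and 4 of the 81 in these comparisons, beside 0.26%, 3.38% and 1.84% of all tested genes. Among those called for P7C3-A20 against DMSO were Agrn, Gpc2, Chpf, Mmp14, Adamts9 and Ptprs, each higher with P7C3-A20, and the 4 between the compounds were Hmmr, Cd44, Itgb8 and Itgav, each higher with NAT. With the GC trend also removed, voom called 1 gene in each comparison (0.379%, 0.248% and 0.445% of all genes), which was Adamts9 for P7C3-A20 against DMSO and Mmp15 between the compounds. Of the hyaluronan and link protein list, 13 of 15 symbols were in the table, without the symbols Cemip and Cemip2. The latter is the newer symbol of Tmem2, which was listed as well and was in the table. Of the 13 symbols found, 12 were tested. Of these, 7 of 12 were positive for NAT against DMSO, 6 when P7C3-A20 was set against DMSO, and 7 between NAT and P7C3-A20. Each lectican gene neighbours a link protein gene in the RefSeq gene order, Bcan beside Hapln2, Ncan beside Hapln4, Vcan beside Hapln1 and Acan beside Hapln3. The link protein genes were low, with mean levels of 0.334 TPM for Hapln2, 3.24 for Hapln3 and 5.03 for Hapln4, although Bcan and Ncan were high. Cd44, a hyaluronan receptor of glia, was at 46.6 ± 1.49 TPM in DMSO, 51.4 ± 1.35 with NAT and 42.9 ± 4.33 with P7C3-A20 (0.26 ± 0.07 between the compounds, limma adjusted p = 0.186). Hmmr, a hyaluronan receptor also known as a mitotic spindle gene, had a log2 difference of 0.30 ± 0.08 between the compounds (limma adjusted p = 0.187).

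Other proteoglycans and tenascins had 15 of 21 genes tested, with 12, 10 and 8 positive in the same order of comparisons and medians of 0.07, 0.06 and 0.00. The most abundant were Sdc3, the neural syndecan, at 490 ± 9.10 TPM in DMSO, and agrin (Agrn) at 238 ± 16.6 TPM. Sdc1 went from 12.2 ± 0.759 TPM in DMSO to 14.7 ± 0.907 with NAT and 14.4 ± 0.651 with P7C3-A20, log2 differences of 0.25 ± 0.07 (limma adjusted p = 0.269) and 0.22 ± 0.07 (adjusted p = 0.195). Gpc2, a glypican of developing neurons, had 59.3 ± 6.34 TPM in DMSO and 72.1 ± 7.03 with P7C3-A20 (0.28 ± 0.08, limma adjusted p = 0.170).

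Enzymes that build chondroitin sulfate had 21 of 22 genes tested, with 16, 14 and 11 positive and medians of 0.06, 0.05 and 0.01. Xylt1, which starts the chain on the core protein, was the most abundant at 105 ± 3.40 TPM in DMSO. Chpf, a chondroitin polymerizing factor, was at 45.1 ± 1.45 TPM in DMSO, 51.2 ± 3.40 with NAT and 54.4 ± 1.32 with P7C3-A20, and its difference of 0.27 ± 0.05 between P7C3-A20 and DMSO missed the threshold (limma adjusted p = 0.139).

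Among 12 tested proteases and inhibitors, 9 were positive with NAT and 6 with P7C3-A20 against DMSO, and 7 between the compounds. Adamts9, a protease that can cleave lecticans, was at 23.3 ± 1.02 TPM in DMSO, 26.8 ± 0.873 with NAT and 27.7 ± 0.382 with P7C3-A20 (0.24 ± 0.05 for P7C3-A20 against DMSO, limma adjusted p = 0.139). Mmp14, a membrane-bound metalloproteinase, was at 132 ± 7.21 TPM in DMSO and 157 ± 8.85 with P7C3-A20 (0.24 ± 0.05, limma adjusted p = 0.139). The inhibitor Timp1 differed by 0.37 ± 0.12 between NAT and P7C3-A20 (limma adjusted p = 0.215).

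Receptors and partners had 21 of 25 genes tested, with 17 and 10 positive against DMSO for NAT and P7C3-A20 and 19 between the compounds, beside the shares of 63.5%, 55.2% and 54.0% over all tested genes. The most abundant were the integrin subunit Itgb1, at 478 ± 7.16 TPM in DMSO, and Ptprs, a receptor phosphatase that binds chondroitin sulfate, at 361 ± 17.4 TPM. Itgav, an integrin alpha subunit, differed by 0.22 ± 0.05 between NAT and P7C3-A20 (limma adjusted p = 0.168), and Itgb8, its partner, by 0.18 ± 0.05 (adjusted p = 0.187).

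**Figure D5:**
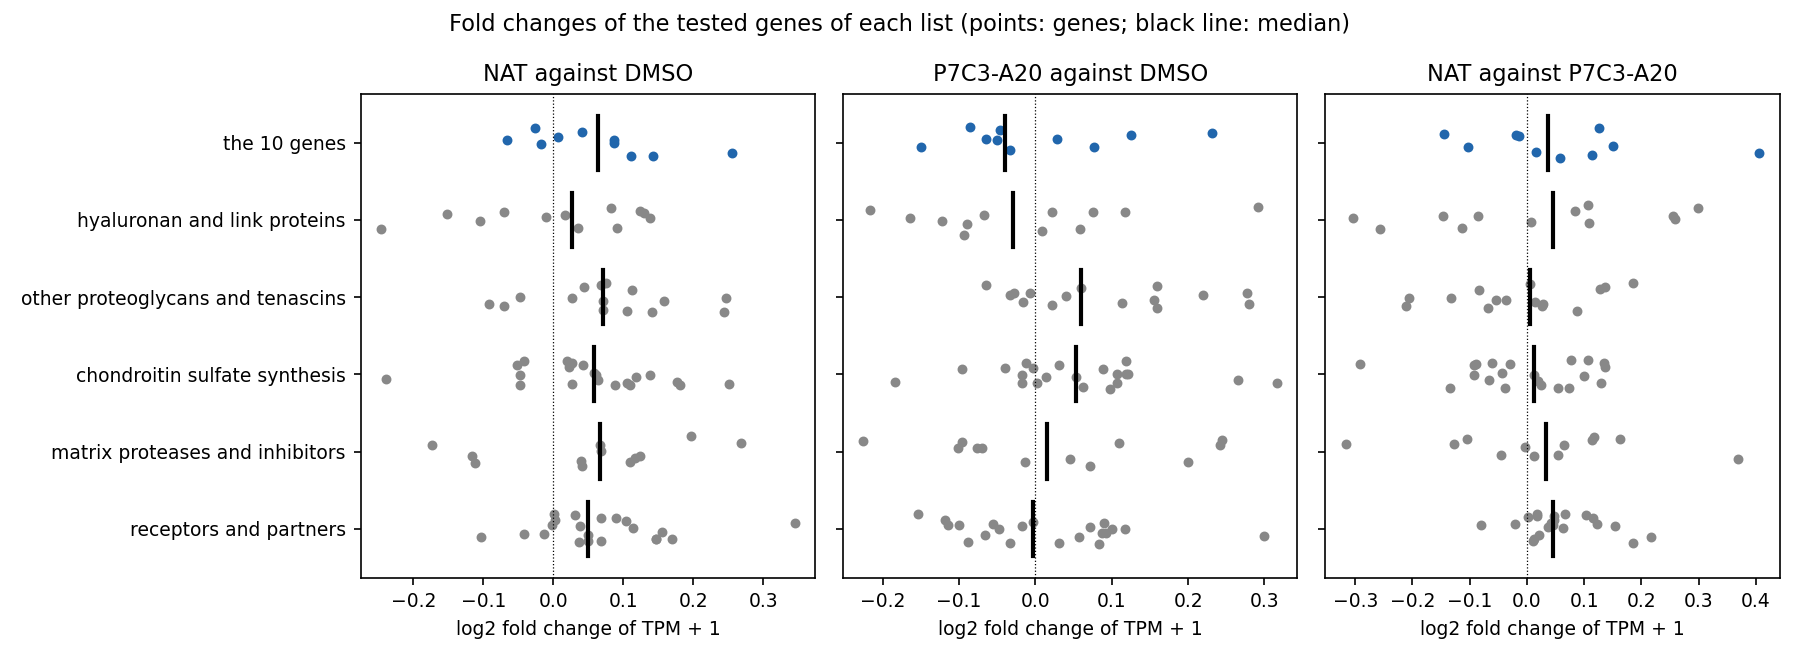
Log2 fold change of TPM + 1 (horizontal axis) of the 10 genes and of the tested genes of 5 matrix lists (rows) in the 3 comparisons, with a point for each gene and a black line for the median. The medians of the 5 lists lie between -0.03 and 0.07, and no gene shown passed the threshold of limma-trend.

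Genes with the most similar profile over the 9 libraries are named by Pearson r of log2(TPM + 1), as a description over libraries that also share depth and GC trend. They were Slc27a1 (r = 0.987) and Bai1 (0.984) for Bcan, Reep3 (0.986) and Fam168a (0.981) for Ncan, Gmfb (0.988) and Ccdc127 (0.987) for Vcan, and Hnrnpl (0.986) and Mark4 (0.965) for Cspg5. Ptprz1 was closest to Usp9x (0.994) and Nf1 (0.989), and Hapln1 to Usp42 (0.972). The tenascins had Dars (0.966) and Cp (0.949) nearest to Tnc, and Sult1a1 (0.926) and Tro (0.926) nearest to Tnr. For the growth factors the nearest genes were 2810474O19Rik (0.935) and Pygo1 (0.925) for Ptn, and Schip1 (0.941) and Phf23 (0.936) for Mdk. The 10 genes themselves were left out of this search. Each r was picked as among the highest over all genes searched, on only 9 libraries. No chance level for values picked in this way was computed. Whether any of these genes followed its listed gene more closely than an unrelated gene would was therefore not tested.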

How the data were processed

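RNA of 9 samples of mouse neural stem cells, 3 each with DMSO, NAT and P7C3-A20, was sequenced from TruSeq RNA libraries, per the labels' protocols. The deposited table holds TPM, which the authors computed per gene symbol, with every column scaled to the same total. Bowtie 0.12.2 and the builds mm8 and mm9 appear, with no role, in the submitters' processing notes. How reads were counted, and on which annotation, is not given in the sources used here. Nothing states that the kit marks the strand, and without strand a gene's reads cannot be separated from those of an overlapping or antisense gene.

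Groups were compared with limma 3.58.1 (limma-trend, R 4.3.3) on log2(TPM + 1) over 13839 genes with at least 1 TPM in at least 3 libraries. A single model of all 9 libraries, with a mean for each group and no other term, left 6 residual degrees of freedom. Its two-sided p-values were adjusted by Benjamini and Hochberg over all tested genes, and called below 0.05. Ratios were compared with exact permutation tests. Whole reads were recovered from the TPM steps for 19302 of 19302 genes with a value (100%, tolerance 0.001), and gave the depth and the voom alternative. That alternative called 36, 468 and 254 genes in NAT against DMSO, P7C3-A20 against DMSO and NAT against P7C3-A20. GC content was that of the longest GENCODE transcript (GRCm38), found for 98.4% of symbols, and its trend was removed per library with a spline of 5 degrees of freedom. The limma-trend fit was also run on simulated reads with a fixed dispersion and no GC trend. That run therefore does not cover the GC trend of these libraries. Other steps used Python 3.11.15, numpy 2.4.6, pandas 2.3.3, scipy 1.17.1 and matplotlib 3.10.9.

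The 10 genes, the lists and the tests were chosen with earlier results of these data known. All 10 were named. From each pathway list the rule took called genes, the 2 most abundant and the 2 of lowest p per comparison, of which a part is printed and some are not reported here, and for each of the 10 genes the 2 others of highest Pearson r over the 9 libraries. Alternatives were quantile normalization, a block for the replicate number, a pseudocount of 0.1, no filter or at least 5 TPM, only the 6 libraries compared, GC trend removal, voom and each library left out. After seeing the data, voom with the GC trend removed, and voom and GC trend removal each without P7C3-A20 replicate 3, were added.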

Additional observations from a re-analysis of the deposited data

How the results depend on the processing

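Of 627 alternative values for the 30 differences of the 10 genes, 579 kept sign and call, 9 gained a call, all with voom, and 39 changed sign, each from a main log2 difference of at most 0.15 in size. For NAT against DMSO, 4 genes of all tested were called. This became 1 with a pseudocount of 0.1, 2 with at least 5 TPM, 7 with only the 6 libraries compared, 36 with voom, 52 with voom and the GC trend removed, 289 with voom without P7C3-A20 replicate 3 (2 of the 10 genes, Ncan and Ptprz1), 29 with the GC trend removed without that library, and 1 to 11 with each library left out. For P7C3-A20 against DMSO, 3 genes became 0 with a pseudocount of 0.1 or at least 5 TPM, 5 with only the 6 libraries, 468 with voom (1 of the 10, Bcan), 34 with voom and the GC trend removed, 362 with voom without P7C3-A20 replicate 3 (2 of the 10, Bcan and Ncan) and 1 to 10 with each library left out. For NAT against P7C3-A20, 0 became 5 with only the 6 libraries, 254 with voom (2 of the 10, Bcan and Ptprz1), 61 with voom and the GC trend removed (1 of the 10, Ncan), 78 with voom without P7C3-A20 replicate 3 (1 of the 10, Ptprz1) and 0 to 2 with each library left out. The causes were not tested. With the replicate number as a block, 3, 7 and 1 genes were called in the 3 comparisons and none of the 10, and with the block and the GC trend removed 1 for P7C3-A20 against DMSO. Same-numbered libraries of different groups had deviations that correlated at -0.0622 to 0.0673, and 3 of 9 libraries correlated best with their own number, so the number is not used as a pairing. Sign changes for NAT against DMSO were those of Tnc, at -0.0222 with quantile normalization, -0.0203 with the GC trend removed (the same with the block or without P7C3-A20 replicate 3), -0.000993 with voom, -0.0230 with voom and the GC trend removed and -0.000576 with voom without P7C3-A20 replicate 3. With each library left out Tnc ran from -0.0176 to 0.0378, and Mdk from -0.0619 to 0.0190. For P7C3-A20 against DMSO, removing the GC trend, with or without the block, gave Ncan -0.0413, Ptn 0.000836 and Mdk -0.0118, with voom Ncan -0.0459, Ptn 0.00703 and Mdk -0.0138, and without P7C3-A20 replicate 3 Mdk -0.0259 and Hapln1 0.0143. Tnc ran from -0.0940 to 0.0194 with each library left out and was 0.0291 with voom without P7C3-A20 replicate 3. For NAT against P7C3-A20, each library left out gave -0.0593 to 0.0480 for Cspg5, -0.0122 to 0.101 for Tnc and -0.0909 to 0.0425 for Tnr. Without P7C3-A20 replicate 3, Cspg5 was 0.0302 with voom and 0.0535 with the GC trend removed, and Tnc was -0.0297 with voom. Ptn was -0.0529 with quantile normalization, -0.0502 with the GC trend removed, with or without the block, -0.00854 with voom, -0.0564 with voom and the GC trend removed, and -0.0225 with the GC trend removed without P7C3-A20 replicate 3. With at least 5 TPM Hapln1 was not tested. Hapln1 and Mdk rested on 14 to 36 and 81 to 142 reads per library, which limits what can be seen for them.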
